A study of Sus scrofa domesticus with 4 samples.

Results

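The insulin-like growth factor (IGF) axis and the growth hormone receptor were followed in the anterior pituitary through 10 genes. They were the ligands IGF1 and IGF2, the receptors IGF1R and GHR, the binding protein genes IGFBP2, IGFBP3, IGFBP5 and IGFBP7, and the signal transducers STAT5A and STAT5B. The genes were listed by name, and their probes were found through the RefSeq accession that the array gives for each probe, matched without its version to the NCBI table of pig genes. All 10 genes had a probe, 21 probes in all, among 2459 genes that could be named on the array.

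Growth hormone, made by the somatotrophs of the anterior pituitary, binds GHR, a cytokine-type receptor that signals through the kinase JAK2 to STAT5A and STAT5B. In liver and in many other tissues the STAT5 proteins switch on IGF1, and circulating IGF1 acts back on the pituitary through IGF1R to restrain growth hormone. IGF-binding proteins hold IGF1 and IGF2 in the extracellular fluid and set how much of them reaches the receptor.

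RNA came from 8 mature gilts, female pigs that had not yet farrowed, all Large White x Polish Landrace and about 110 kg in weight. The pregnant group was 4 gilts mated naturally on the first days of estrus and killed on days 12 to 13 of pregnancy, with conceptuses present. The cyclic group was 4 unmated gilts killed on days 12 to 13 of the estrous cycle, which was staged by ovarian morphology. Each of 4 two-colour Agilent arrays held 1 gilt of each group, so that every probe gave 4 log2 ratios of pregnant over cyclic, and levels are log2 intensities per gilt after normalisation. By the sample labels, Cy3 marked the pregnant gilt on arrays 1 and 3 and the cyclic gilt on arrays 2 and 4. The question was how the gland in early pregnancy compares with the gland of unmated gilts at matched days.

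Over the whole array, 0 of 21627 tested probes (0%) had a limma adjusted p under 0.05, and 3904, or 18.1%, had an unadjusted p under 0.05 (10.4% higher and 7.62% lower in pregnant gilts). The scan software marked 60.7% to 71.8% of spots as well above background in pregnant channels and 47.5% to 71.6% in cyclic channels. No spot was saturated, and precision is limited by there being 4 arrays. The ratios scattered most on array 3, with an SD of 0.581 over tested probes, against 0.276 to 0.333 on the other arrays. On array 4 6116 spots, 14.0% of the total, lay in tiles that had lost many bright spots, called the dim area here; 65.1% of the bright spots inside it and 2.40% of those outside it were lost. All 8 hormone cell markers of the gland were measured, as were 3 of 3 liver markers and 3 of 4 posterior lobe markers. The summed linear intensity of 2 posterior lobe markers was 5016 to 8106 in pregnant gilts and 5704 to 8319 in cyclic gilts. The part of posterior lobe tissue in the RNA was not tested. The gland was measured whole, so that fewer cells of a type and less RNA per cell cannot be told apart.

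None of the 10 genes passed the test between pregnant and cyclic gilts. The limma adjusted p ran from 0.31 for IGF1R to 0.951 for IGFBP5. At an unadjusted p under 0.05 limma listed 0 of the 10 genes and 1 of their 16 tested probes, 6.25%, against 18.1% of all tested probes (10.4% higher and 7.62% lower). The ratio was below 0 for 8 genes and above 0 for GHR and IGFBP3, where 46.9% of all tested probes were below 0. The median log2 ratio of the 10 genes was -0.16, against 0.01 over all tested probes. No gene had all pregnant gilts above or below all cyclic gilts, a separation found upwards for 2.52% and downwards for 1.36% of tested probes. The largest ratio in size was 0.25, and the 95% interval of every gene lay within a 2-fold change in either direction. The error behind them joins 2 parts. One is the scatter left among arrays with equal dye order, since the fit holds a dye effect for each probe. The other is a variance that limma estimates over all tested probes. For a probe with little scatter of its own, such as that of IGF1R (standard error 0.075), the shared variance sets most of the width.

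**Figure D1:**
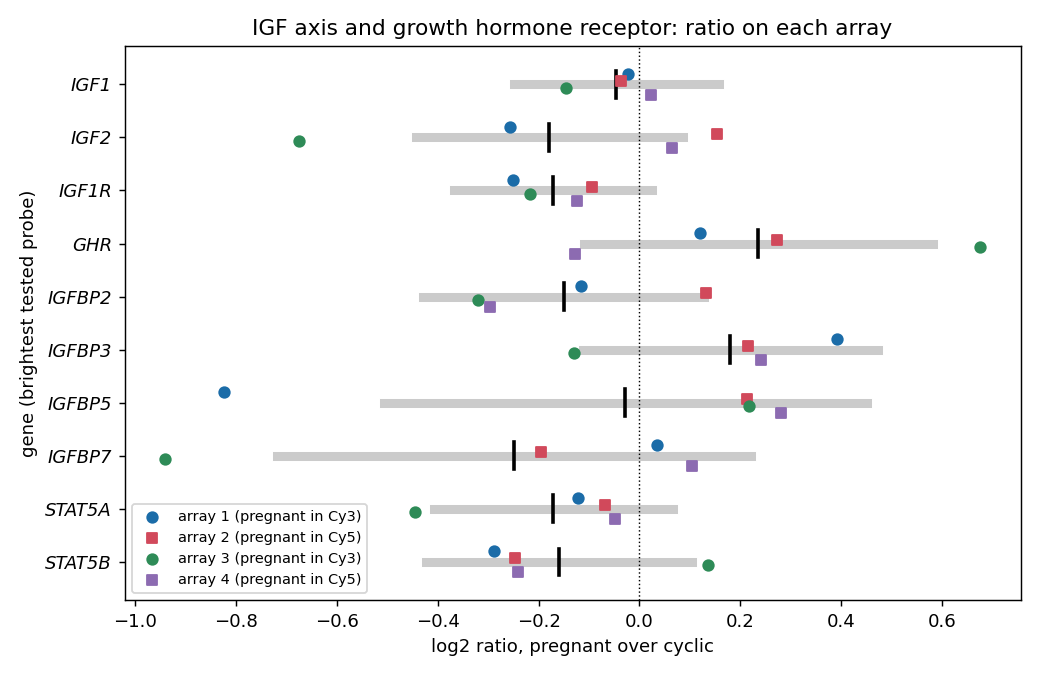
Each point is the log2 ratio of pregnant over cyclic on 1 array (x axis) for the brightest tested probe of a gene (y axis); the black line is the fitted ratio and the grey bar its 95% interval. The bars of all 10 genes cross 0, and the points farthest from 0 belong to array 3 for IGF2, GHR and IGFBP7 and to array 1 for IGFBP5.

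Of the ligands, IGF1, the growth factor that mediates many actions of growth hormone, differed little within any array. Its only probe (NM_214256) read 6.92, 6.64, 6.76 and 7.18 in the pregnant gilts of arrays 1 to 4, against 6.95, 6.68, 6.91 and 7.16 in the cyclic gilts. The gilts of an array lay close together and the arrays lay apart, by 0.50 between the lowest and the highest array mean. Pregnant over cyclic, the log2 ratio was -0.05 ± 0.07 (SD, n = 4), with a 95% interval of -0.25 to 0.16 (limma adjusted p = 0.785).

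The IGF1 spot was weak. Its deposited brightness was 49 to 136, over a local background of 32.5 to 42.5, although the scan software marked it as well above background in all 8 channels. The offset of 50 added in the background step draws the ratios of so weak a spot towards 0. With the scanner's own processed signals, which have no such offset, the ratio was -0.10 with an interval of -0.49 to 0.28.

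IGF2, a fetal growth factor expressed from the paternal allele in most tissues, was covered by 5 probes of NM_213883, all tested. The brightest read 7.93, 7.93, 7.79 and 8.28 in pregnant gilts, against 8.19, 7.78, 8.47 and 8.21 in cyclic gilts. The cyclic gilt of array 3 was the highest of the 8, and the groups overlapped. Its log2 ratio was -0.18 ± 0.37 (SD, n = 4; limma adjusted p = 0.4), 1.13-fold lower in pregnant gilts.

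Most of the other IGF2 probes set the cyclic gilt of array 3 apart more clearly. It read 8.93 on probe A_72_P599193, against 7.78 to 8.56 in pregnant gilts and 7.55 to 8.14 in the other cyclic gilts. On probe A_72_P544532 it read 8.48, against 7.36 to 7.49 in pregnant gilts and 7.02 to 7.21 in the other cyclic gilts. Probe A_72_P537644 set it apart less, at 8.08, against 7.46 to 7.92 in pregnant gilts and 7.34 to 7.74 in the other cyclic gilts. The ratios of the 5 probes on array 3 were all negative, from -1.15 to -0.62, and those on arrays 2 and 4 were all positive, from 0.06 to 0.42. On array 1 they ran from -0.30 to 0.23. In the cyclic channel of array 4 probes A_72_P544532 and A_72_P303139 were near background. Their brightness there was 48 and 52, over local backgrounds of 37 and 40.

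With the outlier-flagged spot of 1 probe kept, the mean of the 4 array ratios was below 0 for each of the 5 IGF2 probes, from -0.21 to -0.03. Without array 3 the fitted ratio of the brightest was -0.07. The direction of the other probes rested on array 3. Probes A_72_P544532 and A_72_P599193 were positive on each of the other arrays, and A_72_P537644 was close to 0 on array 1 and positive on arrays 2 and 4. The sign also followed the dyes for the brightest probe, A_72_P303139 and A_72_P537644, negative with pregnant RNA in Cy3 and positive with it in Cy5. The fitted dye effect was positive for all 5 probes, from 0.29 to 0.64. Probe A_72_P303139 was the only one of the 16 tested probes that limma listed at an unadjusted p under 0.05. Its fitted ratio was -0.40 (limma adjusted p = 0.238). Its array 1 spot carried an outlier flag and was left out, so this fit used 3 arrays, and its array 4 spot lay in the dim area. Array 3 was the only one of these with pregnant RNA in Cy3. Its ratio there was -1.04, against 0.25 on array 2 and 0.24 on array 4, so the negative fit rested on array 3.

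**Figure D2:**
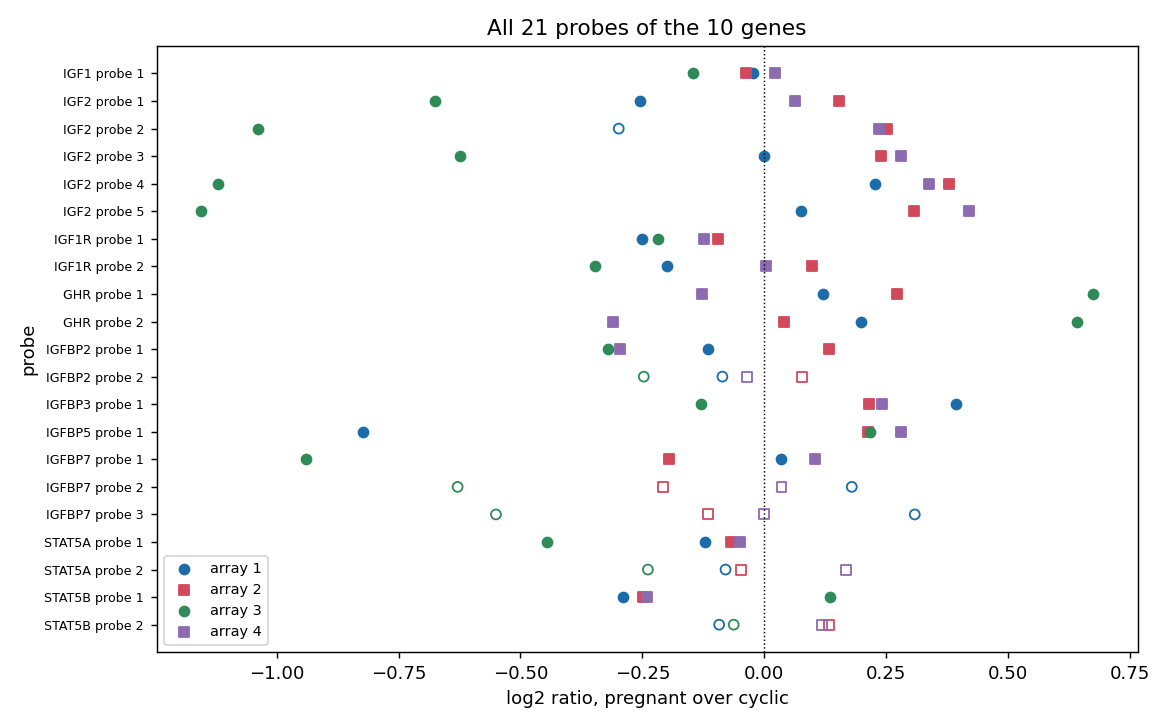
Each row is 1 of the 21 probes, numbered within its gene with the brightest tested probe first, and each point is its log2 ratio of pregnant over cyclic on 1 array. Open symbols are spots left out for an outlier flag and probes that were not tested; the array 3 points of the 5 IGF2 probes lie between -1.15 and -0.62.

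Of the receptors, IGF1R, the tyrosine kinase that binds IGF1 and IGF2, had a negative ratio on every array. Its brighter probe (NM_214172) read 6.63, 6.75, 6.92 and 7.22 in pregnant gilts, against 6.88, 6.85, 7.13 and 7.34 in cyclic gilts. Within each array the cyclic gilt was the higher, while the arrays lay apart by more than the groups did. This gave a log2 ratio of -0.17 ± 0.07 (SD, n = 4), with a 95% interval of -0.37 to 0.02 (limma adjusted p = 0.31).

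Ratios below 0 on every measured array were found for 2 of the 10 genes, IGF1R and STAT5A, and for 11.9% of all tested probes. The second IGF1R probe gave -0.20, 0.10, -0.35 and 0.00 on arrays 1 to 4 and a fitted ratio of -0.11. IGF1R was as weak as IGF1, with a brightness of 45.5 to 122 over a background of 27 to 38. The scanner's processed signals gave -0.47 with an interval of -0.86 to -0.08, which did not pass over all probes (limma adjusted p = 0.224).

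GHR had the largest positive ratio of the 10 genes. Its brighter probe (NM_214254) read 9.40, 9.32, 9.61 and 9.22 in pregnant gilts, against 9.28, 9.05, 8.94 and 9.35 in cyclic gilts. The highest and the lowest of the 8 gilts shared array 3, and on array 4 the order of the groups turned round. The log2 ratio was 0.24 ± 0.34 (SD, n = 4), 1.18-fold higher in pregnant gilts, with a 95% interval of -0.11 to 0.58 (limma adjusted p = 0.397).

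The other GHR probe gave 0.20, 0.04, 0.64 and -0.31 on arrays 1 to 4 and a fitted ratio of 0.14. Both probes were thus highest on array 3 and negative on array 4. Without array 3 the ratio of the brighter probe was 0.10, and without array 1 it was 0.37 (limma adjusted p = 0.0919). GH1, the gene of the hormone that GHR binds, had ratios of -0.94, 1.14, -2.39 and 2.16 on the same arrays. Its sign followed the dyes, negative with pregnant RNA in Cy3 and positive with it in Cy5. The fitted dye effect was 1.66, and the fitted ratio was -0.01 ± 2.05 (SD, n = 4).

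**Figure D3:**
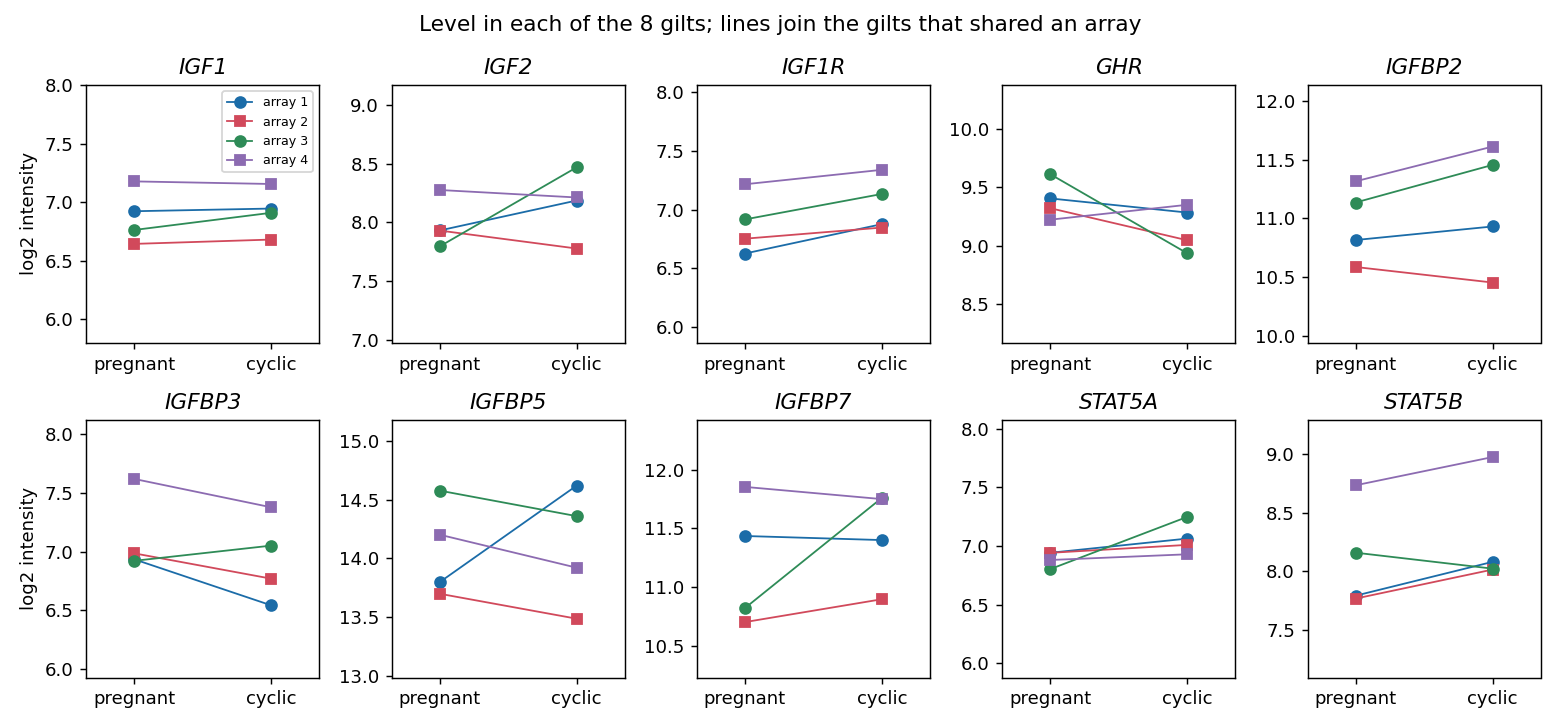
Level of each gene in log2 intensity (y axis, each panel spanning the same range) in the 4 pregnant gilts and the 4 cyclic gilts, with lines joining the gilts that shared an array. The lines of IGF1 are nearly flat, those of IGF1R all end higher in the cyclic gilt, and array 3 crosses the other arrays for IGF2 and GHR, and arrays 1 and 4 for IGFBP7.

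The binding protein genes differed more between gilts than between groups. IGFBP2 encodes a circulating and tissue carrier of IGFs. Its tested probe (NM_214003) read 10.81, 10.58, 11.13 and 11.31 in pregnant gilts, against 10.93, 10.45, 11.45 and 11.61 in cyclic gilts. The groups overlapped almost wholly, and the array means spanned 0.94. For this probe the log2 ratio was -0.15 ± 0.21 (SD, n = 4; limma adjusted p = 0.49). It was -0.26 without array 2, -0.04 without array 4 and -0.0036 with median centring in place of loess.

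A brighter IGFBP2 probe was not tested, because on array 4 it lay in the dim area and was not well above background in either channel. There its brightness was 34 in the pregnant gilt and 40.5 in the cyclic gilt, against 1977.5, 4483 and 3153.5 in the pregnant gilts of arrays 1 to 3 and 6042.5, 1426 and 5138 in the cyclic gilts. Its ratios on arrays 1 to 3 were -0.09, 0.08 and -0.25, of the same sign as those of the tested probe, -0.12, 0.13 and -0.32.

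IGFBP3 encodes the main carrier of IGFs in blood. Its probe (NM_001005156) read 6.93, 6.99, 6.92 and 7.62 in pregnant gilts, against 6.54, 6.77, 7.05 and 7.38 in cyclic gilts. The pregnant gilt was the higher on arrays 1, 2 and 4 and the lower on array 3. The log2 ratio was 0.18 ± 0.22 (SD, n = 4), 1.13-fold higher in pregnant gilts (limma adjusted p = 0.437). It was 0.05 without array 1 and 0.31 without array 3.

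The IGFBP3 spot was weak too, at 50 to 154 over a background of 30 to 50. With the scanner's processed signals its ratio was 0.38, and the upper end of the interval, 1.03, was past a 2-fold change.

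IGFBP5 encodes a carrier that also binds the extracellular matrix. In the RefSeq table of the pig genome it is the next gene to IGFBP2. Its probe (NM_214099) read 13.80, 13.70, 14.58 and 14.20 in pregnant gilts, against 14.62, 13.49, 14.36 and 13.92 in cyclic gilts. The ratios were 0.21, 0.22 and 0.28 on arrays 2, 3 and 4, and -0.82 on array 1, where the cyclic gilt was the highest of the 8. The fitted ratio was -0.03 ± 0.53 (SD, n = 4; limma adjusted p = 0.951), and without array 1 it was 0.23 (adjusted p = 0.139).

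IGFBP7 encodes a secreted protein related to the binding proteins that binds IGFs weakly and is known as a product of endothelial and stromal cells. Its tested probe (NM_001163801) read 11.43, 10.7005, 10.82 and 11.85 in pregnant gilts, against 11.40, 10.90, 11.76 and 11.75 in cyclic gilts. The groups overlapped, and array 3 held the widest gap, with a ratio of -0.94 against -0.20 to 0.10 on the others. The log2 ratio was -0.25 ± 0.48 (SD, n = 4; limma adjusted p = 0.497).

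The IGFBP7 value depended on single arrays. It was -0.01 without array 3, and -0.49 without array 1, where it passed (limma adjusted p = 0.0377), as did 3381 of the 21840 probes tested then. The other IGFBP7 probes carried outlier flags on 2 and 3 arrays and were not tested. Their ratios were -0.63 and -0.55 on array 3, both from flagged spots. On array 1 they were 0.18, from an unflagged spot, and 0.31, from a flagged spot.

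The signal transducer STAT5A had a negative ratio on every array. Its tested probe (NM_214290) read 6.94, 6.94, 6.80 and 6.88 in pregnant gilts, against 7.06, 7.01, 7.25 and 6.93 in cyclic gilts. Only the cyclic gilt of array 4 reached down into the range of the pregnant gilts. The ratio was -0.45 on array 3 and between -0.12 and -0.05 on the other arrays. The fitted log2 ratio was -0.17 ± 0.19 (SD, n = 4), with a 95% interval of -0.41 to 0.07 (limma adjusted p = 0.376). Without array 3 it was -0.09.

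The STAT5A spot had a brightness of 51 to 153 over a background of 25 to 40. The scanner's processed signals gave -0.55 with an interval of -0.96 to -0.14 (limma adjusted p = 0.213). A second STAT5A probe was well above background on 2 arrays in the pregnant channel and 3 in the cyclic channel and was not tested. Its array 4 spot lay in the dim area.

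STAT5B, the neighbouring gene and close relative of STAT5A, was brighter and split differently over the arrays. Its tested probe (NM_214168) read 7.79, 7.77, 8.16 and 8.73 in pregnant gilts, against 8.08, 8.01, 8.02 and 8.97 in cyclic gilts. The ratio was -0.29, -0.25 and -0.24 on arrays 1, 2 and 4 and 0.14 on array 3. The fitted ratio was -0.16 ± 0.20 (SD, n = 4), 1.12-fold lower in pregnant gilts (limma adjusted p = 0.441). Without array 1 it was -0.05, and without array 3 it was -0.27. The scanner's processed signals gave -0.35 (limma adjusted p = 0.262).

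The second STAT5B probe was well above background on 3 arrays in each group and was not tested. It had ratios of -0.09, 0.13, -0.06 and 0.12. Probe sequences were not used here, so a signal shared between the STAT5 transcripts was not tested.

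The ratio farthest from 0 fell on array 3 for 6 of the 10 genes and on array 1 for the other 4. Over all tested probes it fell on array 3 for 52.3% and on array 1 for 20.9%. The cyclic gilt of array 3 had the highest summed level in 3 of 7 marker lists, although for stroma that rank is uncertain, as given below. The highest was the cyclic gilt of array 1 for hormone cells and the posterior lobe, of array 2 for liver and of array 4 for folliculostellate cells. The summed linear intensity of 4 stroma and pericyte markers was 4680 to 6215 in pregnant gilts and 4483 to 6623 in cyclic gilts. The highest pregnant sum was that of array 4, where the ACTA2 spot lay in the dim area. There ACTA2 read 9.59 in the pregnant and 9.84 in the cyclic gilt, against 11.00 to 11.61 on the other arrays. The array 4 stroma sums may thus be too low, and the rank of array 3 against array 4 is uncertain. For 5 endothelial markers the sums were 2007 to 2643 in pregnant gilts and 2158 to 2889 in cyclic gilts. For 3 macrophage markers they were 1554 to 2088 in pregnant gilts and 1350 to 3164 in cyclic gilts, and the cyclic gilt of array 3 was again the highest in both lists. The array 4 spots of AIF1, in the macrophage sum, and AQP4, in the posterior lobe sum, lay in the dim area too. AIF1 read 7.52 and 7.39 there, against 9.33 to 9.74 on the other arrays. The lowest macrophage sum of each group was that of array 4.

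Of the stroma list 5 of 12 genes were measured, 4 of them with a ratio below 0. The smallest unadjusted p belonged to SPARC, a matrix glycoprotein gene, at -0.62 ± 0.28 (SD, n = 3), and ACTA2, a smooth muscle actin gene, at -0.36 ± 0.19 (SD, n = 4). Of the endothelial list 5 of 8 were measured and 3 were below 0, and of the macrophage list 4 of 6 and 3. None passed over all probes. The part of these cells in the IGF2 and IGFBP7 values of array 3 was not tested.

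Levels across the 8 gilts were set against those of 1320 other named genes measured in all channels, as a description. The levels share arrays and dyes, and both gilts of an array move together. IGF2 and IGFBP7 had the same nearest gene, DLK1, an imprinted gene of a Notch-related membrane protein, at Pearson r of 0.91 and 0.96. For IGF2 the next was MUC20 (r = 0.91) and for IGFBP7 it was C1S, a complement protease gene (r = 0.95). GHR had the least close neighbours, RPRD1B (r = 0.86) and CRAT (r = 0.84). For the weak probes of IGF1, IGF1R and STAT5A the closest were FAM210B, RHOF and UNC5B, each at r of 0.99, and next AQP10, ADIPOR1 and CTNNB1 at 0.97, 0.99 and 0.97. IGFBP2 was closest to GZMM and TNXB (r = 0.94 each), and IGFBP3 to TEAD1 and ADGRE5 (r = 0.95 each). IGFBP5 was closest to TBRG4 (r = 0.93) and SIRT7 (r = 0.92), and STAT5B to REEP3 and CDK5R1 (r = 0.98 each).

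The rest of the pathway was described from 7 lists holding 76 symbols, of which 35 had a probe and 25 were measured. Of these 25 genes 14 had a positive and 11 a negative ratio, with a median of 0.02, and 0 passed over all probes. At an unadjusted p under 0.05 limma listed 5, or 20%, against 18.1% of all tested probes. None of the insulin family list was measured.

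Growth hormone and its control had 5 positive and 2 negative ratios. The somatostatin receptor SSTR5, which restrains hormone release, had 1.23 ± 0.57 (SD, n = 4), and POU1F1, the lineage factor of somatotrophs, 0.46 ± 0.23. Both were positive on the 4 arrays, as were 15% of all tested probes, and had a limma adjusted p of 0.235. GHRL, which encodes ghrelin, had 0.24 ± 0.52.

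Genes that carry the signal of IGF1R inside the cell had 6 negative ratios of 7. The MAP kinase kinase gene MAP2K1 had -0.53 ± 0.54 (SD, n = 4), and its 4 probes ran from -0.67 to -0.09. AKT1, a kinase of the phosphoinositide branch, had -0.37 ± 0.37, and GRB10, an adaptor that dampens IGF1R and insulin receptor signalling, -0.16 ± 0.10. GRB10 was negative on the 4 arrays. MAP2K1 and AKT1 were positive on array 4, at 0.18 and 0.09. At an unadjusted p under 0.05 limma listed MAP2K1 and AKT1, with adjusted p of 0.235 and 0.267.

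The partners of STAT5 had 4 positive ratios of 5, by the brightest tested probe of each. JAK1 had -0.13 ± 0.16 and the phosphatase gene PTPN1 0.16 ± 0.32 (SD, n = 4 each). The array 4 spot of this JAK1 probe lay in the dim area, and the other of its 2 tested probes had -0.46. JAK2, the kinase bound to GHR, had 0.03 ± 0.23, and its 2 tested probes disagreed in sign, at -0.26 and 0.03.

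Of the STAT5 targets and feedback genes 3 were measured, none at an unadjusted p under 0.05. SOCS2, which limits growth hormone signalling, had 0.12 ± 0.21, MYC 0.11 ± 0.73 and SOCS3 -0.02 ± 0.11 (SD, n = 4 each). The 2 tested probes of SOCS2 disagreed in sign, at -0.12 and 0.12, as did those of MYC. IGFBP6, a carrier that prefers IGF2, had a fitted ratio of 0.20 from 3 arrays, with 0.23, -0.19 and 0.94 on arrays 2, 3 and 4. STC1, a stanniocalcin, had 0.05 ± 0.37 (SD, n = 4). CTGF, a matrix gene related to the binding proteins, had -0.35 ± 0.98, with -1.73 on array 3. The limma adjusted p of these 6 genes lay between 0.568 and 0.916.

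**Figure D4:**
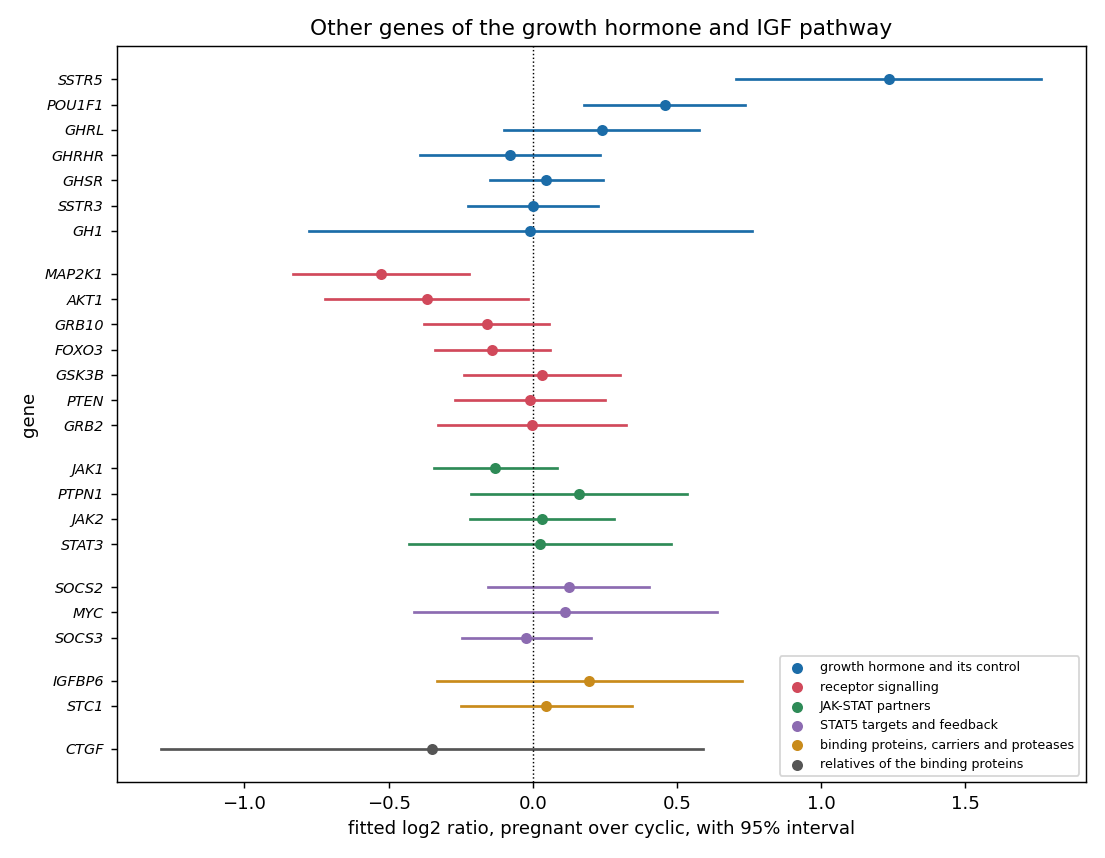
Fitted log2 ratio of pregnant over cyclic (x axis) with its 95% interval for the measured genes of the pathway lists (y axis), 1 gene left out, coloured by list. SSTR5, POU1F1, MAP2K1 and AKT1 have intervals that do not reach 0, at adjusted p of 0.235 to 0.267, and the growth hormone gene GH1 is centred on 0 with an interval wider than that of every other gene but CTGF.

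By the brightest tested probe of each gene, IGF1, IGF2, IGF1R, IGFBP2, IGFBP7 and STAT5A stayed below 0 and GHR above 0 under every alternative tried. For 2 of these the sign was barely kept, with IGFBP2 at -0.0036 under median centring and IGFBP7 at -0.0054 without array 3. The other IGF2 probes depended on array 3, as given above. IGFBP3, IGFBP5 and STAT5B turned their sign under at least 1. The ratios farthest from 0 were -0.55 for STAT5A and -0.47 for IGF1R with the scanner's processed signals, and -0.49 for IGFBP7 without array 1.

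**Figure D5:**
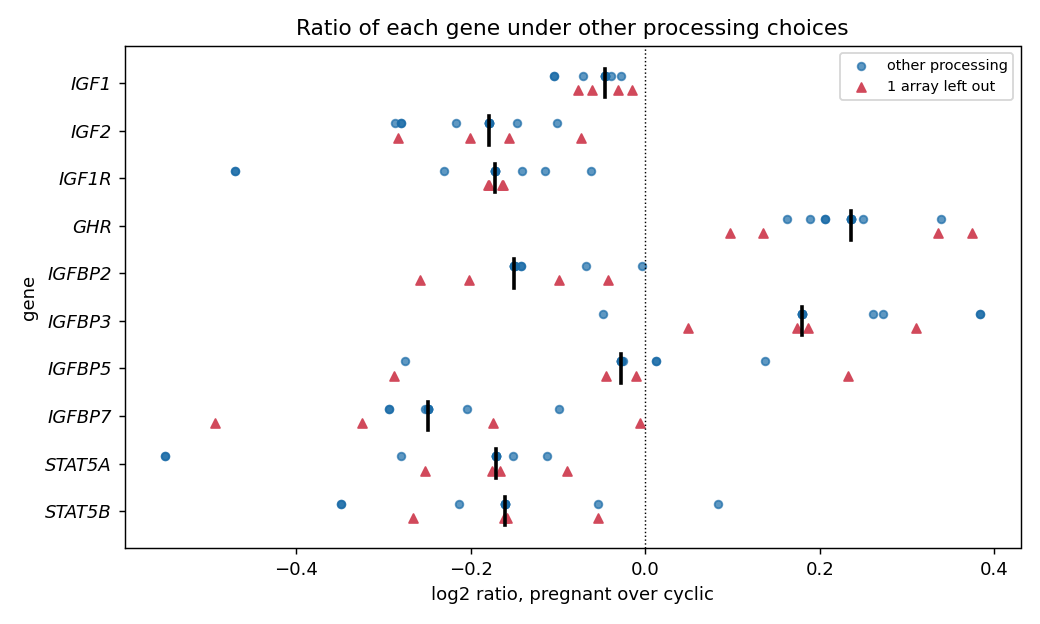
Log2 ratio of pregnant over cyclic (x axis) of each gene under the main processing (black line), under other processing choices (blue circles) and with 1 array left out (red triangles). GHR stays between 0.10 and 0.37, STAT5A reaches -0.55, and IGFBP5 lies on either side of 0, from -0.29 to 0.23.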

How the data were processed

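The scanner output, per the file headers, was read by Agilent Feature Extraction 10.7.3.1 and holds the median intensity of every spot and its local background in Cy3 and Cy5. Processed intensities, background-subtracted and dye-normalised, and a log10 ratio (Cy5 against Cy3) stand beside them per the file headers. The deposited value table holds log2 ratios with column medians of 0.07, -0.08, -0.18 and -0.17. Set against the scanner ratios its columns had slopes of -1, 1, -1 and 1 over 43603 probes, which makes it pregnant over cyclic by the dyes of the sample labels. The labelling protocol can be read as pregnant RNA always in Cy3, and this reading was tried as an alternative.

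Normexp (offset 50) corrected the background, loess normalised each array, and outlier-flagged spots were dropped. Testing required 3 or more unflagged arrays and a signal marked well above background in a group's channel of all 4 arrays. Models were fitted in limma 3.58.1 (R 4.3.3) with a group difference and a dye effect. The Benjamini-Hochberg adjustment ran over 21627 probes at a threshold of 0.05. The fit was also run on data simulated from its own variance estimates, with equal scatter on all arrays. That run cannot show how the fit behaves with the wider scatter of array 3. SDs are over the array ratios, with the dye effect still in them. With n = 3 the dye orders are unequal, so the fitted ratio need not be the mean of those ratios. Levels are channel log2 intensities after Aquantile scaling, and a gene stands for its brightest tested probe. The dim area of array 4 is made of tiles, 10 rows by 5 columns, in which 25% or more of the bright spots went missing in a channel.

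The genes and lists were chosen with earlier results of these data known. Named were the 10 genes, the 3 genes of smallest p in each pathway list, GH1, 2 stroma markers, and the 2 genes nearest in level to each of the 10. JAK2 was added after its values were seen, and 1 gene of the lists is counted but not reported here.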

Additional observations from a re-analysis of the deposited data

Results flagged for a closer look

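Among 45 sets of 4 values of the tested probes, the ratios over arrays and the levels within each group, 7 had their highest or lowest value set apart from the rest, judged by Dixon's ratio. Chance gives about 1 in 20, or 2.25. The sets are not independent, since a ratio is the difference of levels.

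The IGF2 probe A_72_P544532 had a log2 ratio of -1.12 on array 3, against 0.23 to 0.38 on the other arrays, and the level of the cyclic gilt of array 3 was 8.48, against 7.02 to 7.21 in the other cyclic gilts. IGFBP5 had a ratio of -0.82 on array 1, against 0.21 to 0.28 on the others. STAT5B had a ratio of 0.14 on array 3, against -0.29 to -0.24, and a level of 8.97 in the cyclic gilt of array 4, against 8.01 to 8.08 in the other cyclic gilts. The pregnant gilt of array 4 read 7.62 for IGFBP3, against 6.92 to 6.99 in the other pregnant gilts, and 7.10 for the second IGF1R probe, against 6.61 to 6.69.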

How the results depend on the processing

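Of 153 values of the 10 genes under the alternatives, 146 kept the sign and the side of the threshold, 6 turned the sign and 1 passed, IGFBP7 without array 1. With pregnant RNA in Cy3 on all arrays the ratio was -0.049 for IGFBP3 and 0.084 for STAT5B. For IGFBP5 it was 0.14 with median centring, 0.013 with the scanner's processed signals and 0.013 with the deposited value table, and -0.29 to 0.23 on leaving out 1 array. The causes were not tested.

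The count of the 10 genes that passed ran from 0 to 1 on leaving out 1 array and was 0 under the other alternatives. Of all probes, 1 passed with no background correction, 2 with no dye effect, 1047 in a separate-channel fit and 0 to 3381 on leaving out 1 array (3381 without array 1). Of the other pathway genes 3 passed in the separate-channel fit, SSTR5, POU1F1 and MAP2K1, and 0 to 2 on leaving out 1 array, where SSTR5 and CTGF passed without array 1. The ratio of CTGF was 0.17 without array 3. By the brightest tested probe, IGF1, IGF1R, IGFBP3 and STAT5A were measured near background, where the offset draws ratios towards 0. So were the cyclic spots of the IGF2 probes A_72_P544532 and A_72_P303139 on array 4. The 95% intervals of 9 of the 10 genes lay within a 2-fold change with the processed signals, with the deposited value table and without array 4. The main analysis is already paired by array, since it tests the log2 ratio of the pregnant and cyclic gilts that share one, and the separate-channel fit keeps that pairing through an intraspot correlation of 0.797.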
